A study of Mus musculus with 21 samples.

Results

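The potassium channel subunits described here were the 84 genes of the 35266 in the count table whose symbols begin with *Kcn* and follow the pattern of a pore-forming or auxiliary channel subunit. The calcium-activated SK subunits, the BK subunits *Kcnma1* and *Kcnmb4* and the KATP pore subunits *Kcnj8* and *Kcnj11* (8 of 92 matching genes in all) were left out. The rule read the symbols alone. They fell into 11 classes, from the 2 genes of the Kv2 class to the 14 K2P channels and the 14 auxiliary subunits.

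RNA-Seq libraries were made from AGRP and POMC neurons that were sorted by hand, by their fluorescence, from the arcuate nucleus of male mice on the C57BL/6J background. AGRP neurons came from NPY-hrGFP mice and POMC neurons from Pomc-GFP mice, aged 46 to 56 postnatal days, so that neuron type and reporter line cannot be told apart. Every mouse was moved alone to a fresh cage for 24 hr, with food for the fed groups (n = 5 AGRP, n = 5 POMC) and with water alone for the food-deprived (FD) groups (n = 6 AGRP, n = 5 POMC). Each library held 44 to 214 cells from 1 mouse.

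Potassium channels set the resting potential, shape the action potential and bring the membrane back down after firing. K2P channels carry background leak current, inward rectifiers (Kir) hold the cell near rest and in part answer to G proteins, and voltage-gated (Kv) channels open on depolarization, each family with its own speed and threshold. Some Kv genes make no channel alone and only change the Kv2 channels they join. KChIP and Kvβ proteins are auxiliary subunits that adjust Kv4 and Kv1 channels. In the arcuate nucleus, AGRP neurons promote feeding and fire more when energy is short, whereas POMC neurons restrain it.

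Libraries held 9822298 to 37663979 gene counts. A floor of 3 counts corresponded to 0.0797 to 0.305 CPM (counts scaled to a library total), and it covers counting error alone. *Npy*, which marks the AGRP neurons, was higher in AGRP than in POMC neurons of fed mice by a log2 fold change of 8.52. The 16 markers of astrocytes, oligodendrocytes, microglia and endothelium summed to group means of 36.3 to 47.0 TPM (transcripts scaled by gene length and library total). Of the markers with enough counts to be tested, only *Aldh1l1*, an astrocyte enzyme, passed (AGRP FD against fed, edgeR adjusted p = 0.0284), at 1.69 TPM against 0.0258 TPM. *Mog*, *Mobp*, *Cx3cr1*, *C1qa*, *C1qb* and *Cldn5* had too few counts for a test. The part of such cells in the results was not tested. In pooled cells, a change in the number of cells that express a gene and a change in the RNA of each cell cannot be told apart.

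Both neuron types expressed most of the family. A mean above 1 TPM was reached by 59 members in fed AGRP neurons, 60 in FD AGRP neurons, 58 in fed POMC neurons and 57 in FD POMC neurons. Such a mean can rest on few libraries, as for *Kcnv2* in FD AGRP neurons (mean 3.08 TPM, median 0.154 TPM). In all 4 groups, 18 members lay above 20 TPM and 17 members did not exceed 1 TPM, among which *Kcnk5* and *Kcne4* had no count in any library. The 10 most expressed members held 54.1% of the summed mean TPM of the family. Summed over the 84 members, the level was 2195 ± 117 TPM in fed AGRP neurons (SD, n = 5), 2334 ± 237 TPM in FD AGRP neurons (n = 6), 1348 ± 220 TPM in fed POMC neurons (n = 5) and 1701 ± 139 TPM in FD POMC neurons (n = 5).

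The classes did not share this sum evenly. K2P channels were the largest class in fed AGRP neurons, at 614 ± 83.9 TPM (SD, n = 5), against 201 ± 40.6 TPM in fed POMC neurons (n = 5), and no AGRP library (lowest 562 TPM) came down to the highest fed POMC library (266 TPM). Kv7 channels, which carry the M-current that restrains repetitive firing, summed to 212 ± 39.5 TPM in fed and 151 ± 39.9 TPM in FD AGRP neurons. In POMC neurons, the same 5 genes summed to 129 ± 24.8 TPM in fed and 263 ± 44.3 TPM in FD mice. Lower FD sums in AGRP neurons with higher FD sums in POMC neurons were seen in 6 of the 11 classes (Kv1, Kv4, Kv7, EAG-ERG-ELK, Kir and Slo). Kv4 channels were at 190 ± 13.4 and 120 ± 26.2 TPM in AGRP neurons and 103 ± 23.9 and 142 ± 15.8 TPM in POMC neurons. These sums are descriptions and were not tested.

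**Figure D1:**
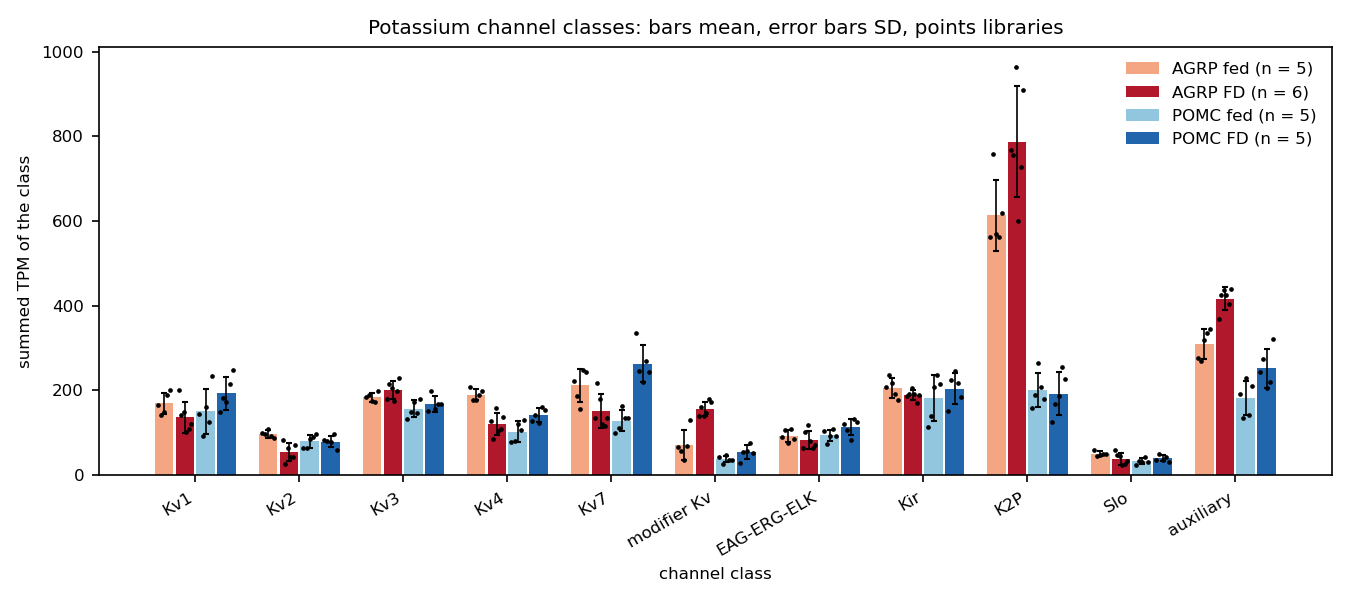
Summed TPM of each channel class (y axis, linear from 0) in the 4 groups, with bars for the mean, error bars for the SD and points for libraries. The K2P sum was 614 TPM in fed AGRP and 201 TPM in fed POMC neurons, and the Kv7 sum was 151 TPM in FD AGRP and 263 TPM in FD POMC neurons.

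The most expressed member was *Kcnk9*, the acid-sensitive leak channel TASK-3, owing to its AGRP libraries: it stood first in fed AGRP neurons at 300.3 ± 41.0 TPM (SD, n = 5) and was at 3.18 ± 2.67 TPM in fed POMC neurons (n = 5). In fed AGRP neurons it was followed by *Kcnk2* (the stretch- and lipid-sensitive leak channel TREK-1) at 197 ± 9.75 TPM, *Kcnd3* (the A-type channel Kv4.3) at 119 ± 13.9 TPM and *Kcnip1* (KChIP1) at 118 ± 19.0 TPM, of which the last pair differed by less than their spread. In fed POMC neurons, *Kcnk1* (the weak leak channel TWIK-1) led at 93.9 ± 43.8 TPM, ahead of *Kcnip1* at 86.0 ± 28.0 TPM and *Kcnj3* (GIRK1) at 80.2 ± 28.5 TPM, and these neighbours did not differ beyond their spread. The order of the group means was another in FD neurons of both types, which was not tested. *Kcnk1* came next to *Kcnk9* in FD AGRP neurons, at 213 ± 65.2 TPM (n = 6). In FD POMC neurons *Kcnq3* (the M-current subunit Kv7.3), at 133 ± 40.4 TPM (n = 5), came next to *Kcnip1*, at 138 ± 31.2 TPM. This pair did not differ beyond its spread.

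Some other classes were led by members of similar level in all groups. *Kcnh2* (Erg1) lay between 30.8 and 40.2 TPM in the 4 group means. *Kcna5* (Kv1.5) lay between 49.9 and 79.4 TPM. In the authors' annotation its gene model, introns included, spans *Kcna1*, and whether exons of the 2 genes overlap was not measured. Neither passed any test.

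To ask which channels distinguish the neurons before any challenge, fed AGRP and POMC neurons were compared. Of the 66 members that passed the filter on low counts, 12 differed (edgeR quasi-likelihood test, adjusted p under 0.05, where 7.57% of all tested genes did), with 9 higher in AGRP neurons (3.33% of all genes) and 3 higher in POMC neurons (4.24%). Values of 14 members did not overlap between the groups (8.93% of all genes). The median log2 difference of AGRP minus POMC was 0.36 over the 66 members and −0.01 over all tested genes. Of the 12, 8 also met the study's criteria for differentially expressed genes, which add a log2 fold change beyond 1 and group mean CPM above 20 (4.01% of all genes). Levels of single libraries are given below as CPM normalized by trimmed mean of M-values (TMM).

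The leak channels held the largest difference. *Kcnk9* (chr15:72512118-72546279, mm10) was at 85.0, 133, 107, 89.6 and 105 CPM in the fed AGRP libraries and at 2.54, 0, 0.236, 1.54 and 1.95 CPM in the fed POMC libraries. No library of one group came near the other, and the log2 fold change was 6.42 (SE 0.71, adjusted p = 8.89e-08). *Kcnk2* was at 216 to 267 CPM in fed AGRP libraries and 35.1 to 133 CPM in fed POMC libraries, again without overlap (log2 fold change 1.69, SE 0.27, adjusted p = 5.84e-05). *Kcnk13*, which encodes the halothane-inhibited leak channel THIK-1, ran the other way, at 0.0608 to 2.84 CPM in AGRP and 5.49 to 19.9 CPM in POMC neurons (log2 fold change −3.80, SE 0.92, adjusted p = 0.00668). THIK-1 is also known from microglia, whose 4 markers summed to 0 to 11.5 TPM in fed AGRP and 0.0700 to 10.7 TPM in fed POMC libraries, and their part was not tested.

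Inward rectifiers differed in composition. *Kcnj5* (GIRK4) was higher in AGRP neurons, at 60.7, 81.7, 77.2, 76.1 and 76.5 CPM against 8.72, 7.99, 38.2, 43.6 and 12.2 CPM in POMC neurons (log2 fold change 1.75, SE 0.36, adjusted p = 0.00138). *Kcnj3* (GIRK1), with which GIRK4 can form G-protein-gated channels, was higher in POMC neurons, at 93.2, 99.9, 130.1, 173 and 166 CPM against 73.9, 68.5, 54.5, 30.7 and 34.1 CPM (log2 fold change −1.34, SE 0.33, adjusted p = 0.00872). Neither gene had overlapping groups. *Kcnj2*, the classical strong inward rectifier Kir2.1, was at 2.53 to 21.7 CPM in AGRP and 0 to 1.80 CPM in POMC neurons (log2 fold change 4.74, SE 1.18, adjusted p = 0.00871). *Kcnj10*, the Kir4.1 channel best known from astrocytes, was at 10.1 TPM in fed AGRP and 6.63 TPM in fed POMC neurons and passed no test.

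Among voltage-gated and sodium-activated channels, *Kcnh7* (Erg3) was the one higher in POMC neurons, at 75.2 to 121 CPM against 11.2 to 44.3 CPM in AGRP neurons (log2 fold change −2.16, SE 0.33, adjusted p = 3.20e-05). *Kcnq5* (Kv7.5) was at 28.5 to 35.4 CPM in AGRP and 2.15 to 11.5 CPM in POMC neurons (log2 fold change 2.24, adjusted p = 0.00545). *Kcnt1*, the sodium-activated channel Slack, was at 57.4 to 91.1 CPM in AGRP and 15.0 to 38.1 CPM in POMC neurons (log2 fold change 1.52, adjusted p = 0.000184). None of these 3 genes had overlapping groups.

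The A-type channels leaned to AGRP neurons as well. *Kcnd3* was higher there, at 209 to 317 CPM against 118 to 194 CPM (log2 fold change 0.73, SE 0.17, adjusted p = 0.00543). *Kcnd2* (Kv4.2; log2 fold change 0.71, adjusted p = 0.0376) and *Kcnip3* (KChIP3, also the transcriptional repressor DREAM; log2 fold change 2.08, adjusted p = 0.0417) each passed in only 2 of the 10 fits with 1 library left out and not with the spike-in set as a block. For *Kcnip3* 1 fed POMC library, replicate 4, was at 20.2 CPM where the other 4 had at most 5.80 CPM. Without it, the log2 fold change was 3.13. All 12 differences kept their direction within both spike-in sets that hold fed libraries of each neuron type (1 AGRP against 3 POMC and 2 against 2), and under scaling by the ERCC spike-ins per sorted cell, where only *Kcnk9* and *Kcnj2* still passed (1.8% of all genes did).

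**Figure D2:**
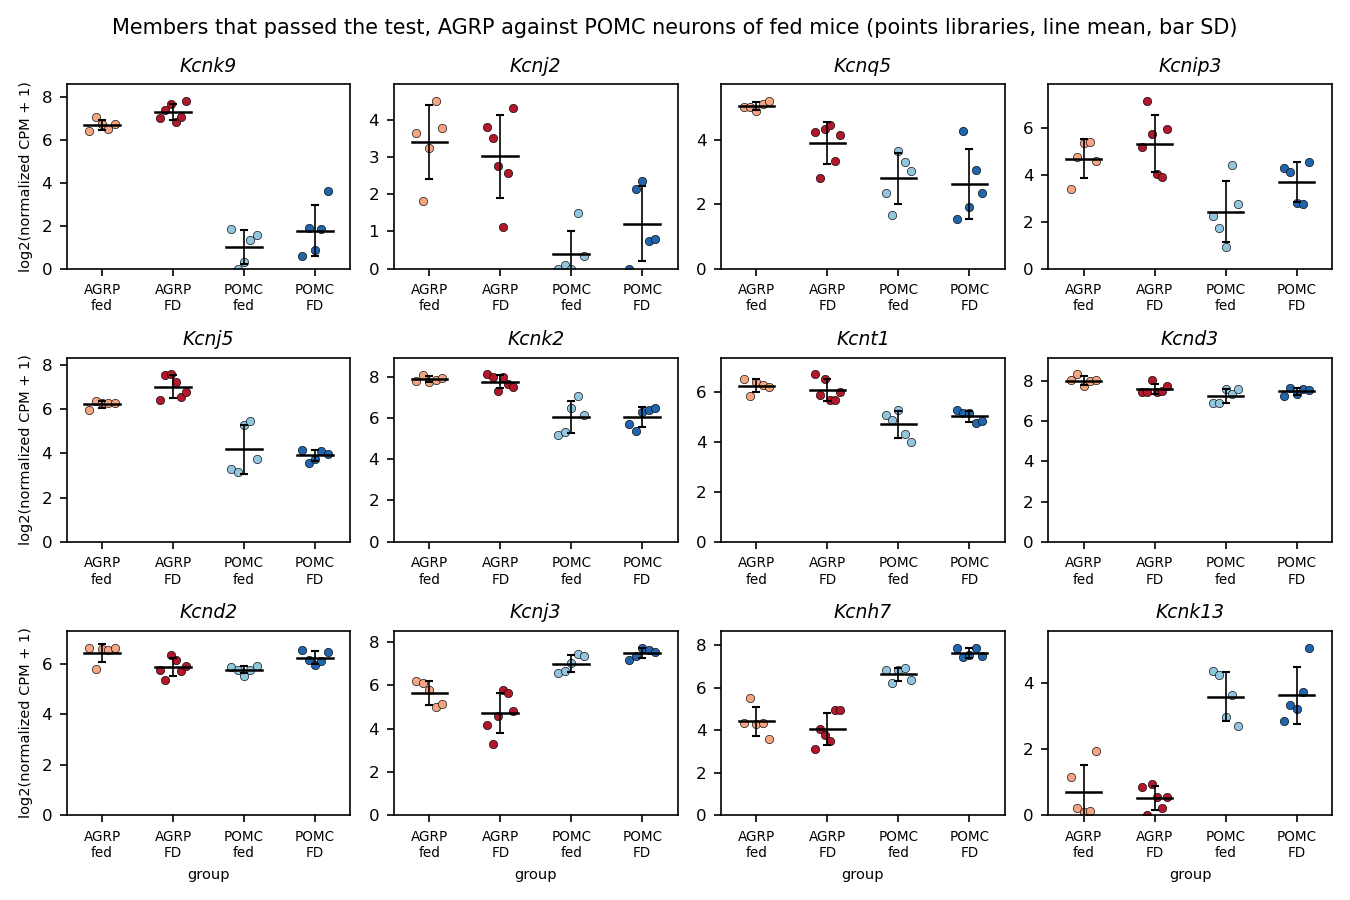
Log2 of normalized CPM plus 1 (y axis) by group (x axis) for the 12 members that differed between AGRP and POMC neurons of fed mice, with points for libraries, lines for means and bars for the SD. *Kcnk9* lay at 85.0 to 133 CPM in every fed AGRP library and at most 2.54 CPM in fed POMC libraries.

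Food deprivation of AGRP neurons was the next comparison, and 11 of the 66 members changed (10.3% of all tested genes did). There were 8 that rose (5.87% of all genes) and 3 that fell (4.43%), and 8 of the 11 met the criteria for differentially expressed genes (4.46%). Groups did not overlap for 7 members (7.65% of all genes). The median log2 fold change was −0.20 over the 66 members and −0.02 over all tested genes. The members that rose were modifiers of Kv2 channels, auxiliary subunits, an Eag channel, a leak channel and a Kv3 channel, and those that fell were a Kv2, a Kv3 and a Kv7 subunit. No Kv1, Kv4, Kir or sodium-activated channel passed.

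The Kv2 class and its modifiers moved in both directions. *Kcnv1* (Kv8.1, chr15:45106283-45114934), silent alone and a modifier of Kv2 channels, was at 3.66, 10.0, 4.68, 2.56 and 9.15 CPM in fed AGRP libraries, and at 9.22 CPM at the lowest, 46.6 CPM at the median and 59.6 CPM at the highest in FD libraries. All but 1 FD library stood above every fed library (log2 fold change 2.71, SE 0.57, adjusted p = 0.00195). *Kcnf1* (Kv5.1), another silent modifier, was at 58.4, 57.4, 27.1, 55.0 and 153 CPM in fed libraries and 172 to 216 CPM (median 195) in FD libraries, with no overlap even though fed replicate 5 stood apart (log2 fold change 1.48, SE 0.29, adjusted p = 0.000960). *Kcnb2* (Kv2.2, chr1:15287253-15723750), one of the channels these subunits join, fell from 142, 156, 172, 155 and 77.2 CPM to 27.9 to 78.7 CPM (median 38.0), where 1 FD library lay above the lowest fed one (log2 fold change −1.60, SE 0.25, adjusted p = 4.79e-05).

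The 2 most expressed Kv3 genes, whose channels repolarize fast-spiking cells, moved apart. *Kcnc2* (Kv3.2, chr10:112271122-112466304) was at 137, 153, 113, 142 and 195 CPM in fed libraries and 202 to 346 CPM (median 317) in FD libraries. *Kcnc1* (Kv3.1, chr7:46396496-46438375) was at 124, 149, 168, 119 and 128 CPM in fed libraries and 54.1 to 113 CPM (median 73.9) in FD libraries. Neither gene had overlapping groups, and the log2 fold changes were 1.03 (SE 0.19, adjusted p = 0.000375) and −0.78 (SE 0.17, adjusted p = 0.00307). As the moves were opposite, the Kv3 sum was 184 ± 10.3 TPM in fed and 201 ± 20.4 TPM in FD mice. *Kcnc4* (Kv3.4) was at 37.9 TPM in fed and 21.2 TPM in FD mice and did not pass.

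Auxiliary subunits gave 3 of the 8 that rose. *Kcnab1* (Kvβ1), a cytoplasmic subunit that can make Kv1 channels inactivate, was at 13.3, 12.9, 17.7, 19.2 and 17.9 CPM in fed libraries and 40.9 to 105 CPM (median 72.8) in FD libraries, without overlap (log2 fold change 2.16, SE 0.54, adjusted p = 0.00886). *Kcnip1* was at 65.0 to 95.8 CPM in fed and 111 to 161 CPM in FD libraries, again without overlap (log2 fold change 0.71, SE 0.20, adjusted p = 0.0222), and it passed in 8 of the 11 fits with 1 library left out (adjusted p up to 0.0715). *Kcnip4* (KChIP4), another Kv4 subunit, was at 54.6 to 85.6 CPM in fed and 71.2 to 183 CPM in FD libraries, which overlapped (log2 fold change 0.81, adjusted p = 0.0468), and it passed in 4 of the 11 fits with 1 library left out and not with RLE scaling or the replicate block. The pore subunits that KChIPs join gave log2 fold changes of −0.41 for *Kcnd3* (adjusted p = 0.120) and −0.57 for *Kcnd2* (adjusted p = 0.0776).

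*Kcnk1* (chr8:125995101-126030683) rose among the leak channels, from 50.1, 103, 29.4, 50.2 and 50.6 CPM to 95.4 to 249 CPM (median 177), with fed replicate 2 alone inside the FD range (log2 fold change 1.56, SE 0.30, adjusted p = 0.000775). *Kcnk9* and *Kcnk2*, the most expressed leak channels of fed AGRP neurons, had log2 fold changes of 0.63 (SE 0.52, adjusted p = 0.538) and −0.11 (SE 0.25, adjusted p = 0.867). *Kcnh1* (Eag1, chr1:192190773-192510159), a slow voltage-gated channel, was at 8.51 to 25.4 CPM in fed libraries and 8.24, 37.5 and 117 CPM at the lowest, median and highest in FD libraries. The highest was FD replicate 2, the next was at 53.7 CPM, and without replicate 2 the log2 fold change went from 1.60 (adjusted p = 0.0215) to 1.08 (adjusted p = 0.124). It passed in 7 of the 11 fits with 1 library left out and not with limma-voom, and its gene model overlaps that of *Hhat*.

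*Kcnq3* (chr15:65986386-66286224) fell in most FD AGRP libraries. Fed libraries were at 263, 252, 147, 421 and 372 CPM, and FD libraries at 65.4, 425, 116, 76.9, 74.8 and 84.4 CPM. Thus 5 of the 6 FD libraries lay below every fed library and replicate 2 lay above all of them. The log2 fold change was −1.05 (SE 0.35, adjusted p = 0.0490), and it passed in only 2 of the 11 fits with 1 library left out, and neither with DESeq2 (adjusted p = 0.0830) nor with the 2 AGRP groups alone (adjusted p = 0.106). One of those was the fit without FD replicate 2, with a log2 fold change of −1.80 (SE 0.23, adjusted p = 4.93e-06). Replicate 2 was the library of 50 cells, the fewest of the FD AGRP libraries, and held 20279816 gene counts. Its *Npy*, at 7094 CPM, lay within the 3663 to 10859 CPM of the other FD libraries. It was the highest FD library for 11 of the 66 members and the lowest for 16, where the other 5 were highest for 5 to 15 and lowest for 3 to 16. It stood far above the others for *Kcnip3* (139 CPM, next 61.0) and for *Kcnt2*, the sodium-activated channel Slick, singled out after its values were seen (51.4 CPM, next 8.87). Over all genes that fell in AGRP neurons, it was the highest FD library for 10.8%. Why it differed for *Kcnq3* was not tested. *Kcnq5*, another Kv7 gene whose groups did not overlap, had a log2 fold change of −1.10 (SE 0.48, adjusted p = 0.167).

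FD replicate 1 was the lowest FD library for 7 of the 8 members that rose, the exception being *Kcnip4*. Over all 969 genes that rose in AGRP neurons it was the lowest for 44.3%, more often than any of the other 5 FD libraries. Over the 731 genes that fell it was the highest for 36.5%, again more often than the others. Its *Agrp* (1332 CPM) and *Npy* (3663 CPM) were the lowest of the FD libraries, with the others at 2234 CPM or more and 5647 CPM or more. Without FD replicate 1 the log2 fold change of *Kcnv1* was 2.91 and that of *Kcnc2* 1.13. All 11 changes kept their direction within each of the 3 spike-in sets, which hold 1, 2 and 3 FD libraries against 1, 2 and 2 fed ones. They also kept it under scaling by the ERCC spike-ins per sorted cell. None of the 11 passed by edgeR there (0.587% of all genes did). An unadjusted p under 0.05 was reached by 6 of the 66 members, and its share over all genes was not counted. Each AGRP group mixed the 3 spike-in sets. ERCC counts were 54433 in fed replicate 1 (1 μl, 142 cells) and 2755357 in fed replicate 2 (10 μl, 102 cells), out of proportion to the added volume. ERCC mix 2 was used for AGRP fed replicate 5 and FD replicate 3, and mix 1 for the others. How far these differences widened the spread was not tested.

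**Figure D3:**
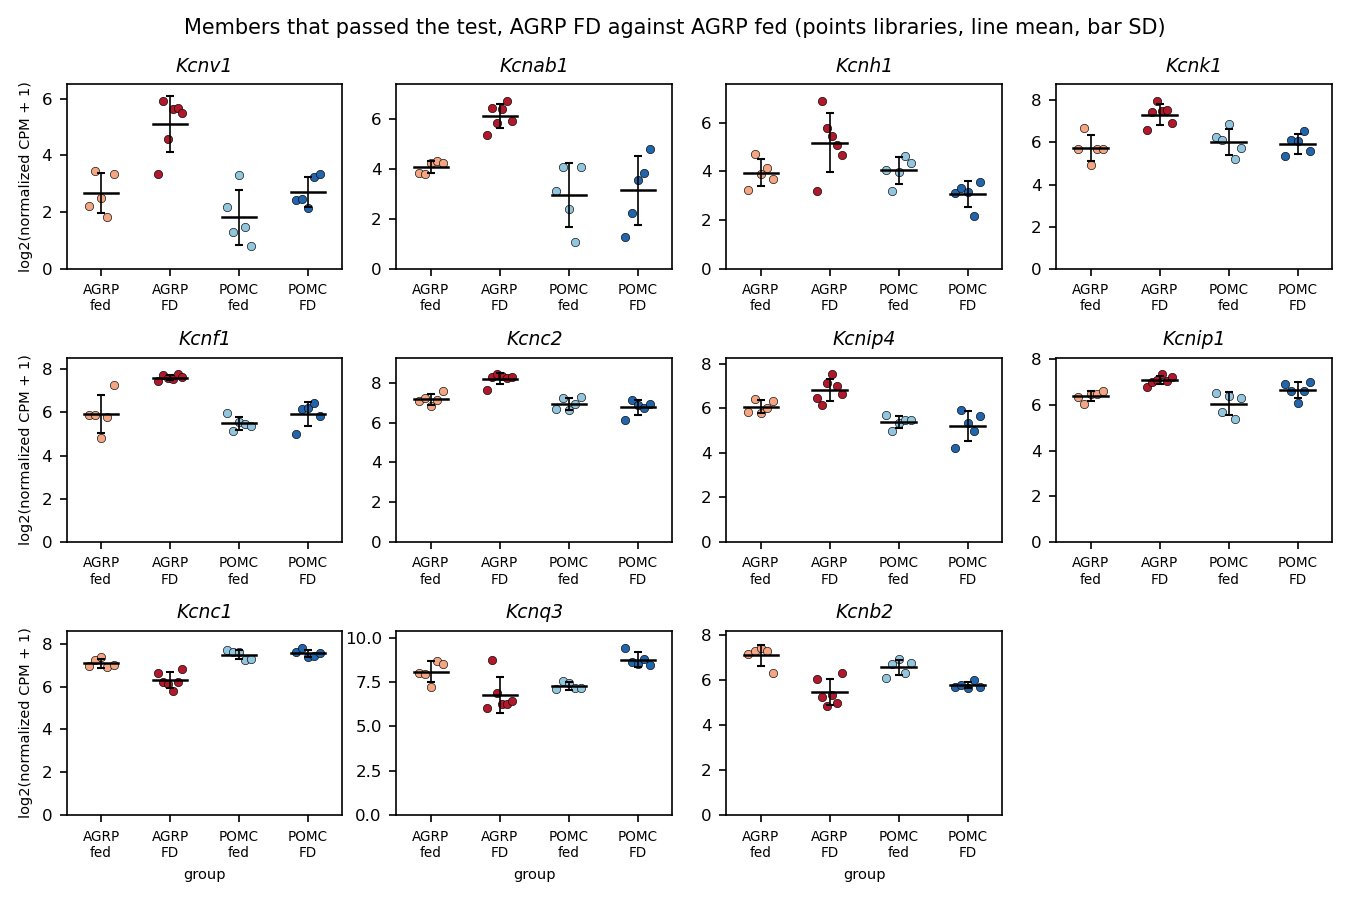
Log2 of normalized CPM plus 1 (y axis) by group (x axis) for the 11 members that changed with FD in AGRP neurons, ordered from the largest rise to the largest fall, with points for libraries, lines for means and bars for the SD. For *Kcnq3*, FD AGRP replicate 2 stands at 425 CPM above the other 5, which lie at 65.4 to 116 CPM.

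Promoter sequence was available from RefSeq (GRCm38.p6, the mm10 assembly) for 61 of the 84 members, as the 250 bases before the farthest upstream of a gene's start sites in that table. For *Kcnip4* this start lies inside the longer gene model that the authors counted. The 7 members that rose and had an entry were not alike in base composition, with a GC content of 44.4 to 62.0%, against a median of 58.4% over the 61 members. Shown are the promoters of 3 members that rose without sharing a class, of *Kcnip4*, the only one of the 7 with any of the motifs searched, and of *Kcnc1*, which fell. Capitals mark motif matches, and each runs 5′ to 3′ on the strand of its gene.
Kcnc2 (chr10:112269767-112270016, + strand): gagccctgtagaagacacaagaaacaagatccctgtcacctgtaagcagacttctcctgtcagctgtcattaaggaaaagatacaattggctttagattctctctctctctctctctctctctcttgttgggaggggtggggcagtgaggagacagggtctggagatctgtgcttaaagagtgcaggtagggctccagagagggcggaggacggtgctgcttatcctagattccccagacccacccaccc
Kcnf1 (chr12:17176889-17177138, − strand): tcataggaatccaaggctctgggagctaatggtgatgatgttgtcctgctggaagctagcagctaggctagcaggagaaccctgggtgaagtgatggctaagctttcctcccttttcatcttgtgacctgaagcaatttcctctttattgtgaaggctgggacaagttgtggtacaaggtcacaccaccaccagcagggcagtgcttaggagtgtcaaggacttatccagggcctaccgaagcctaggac
Kcnk1 (chr8:125994852-125995101, + strand): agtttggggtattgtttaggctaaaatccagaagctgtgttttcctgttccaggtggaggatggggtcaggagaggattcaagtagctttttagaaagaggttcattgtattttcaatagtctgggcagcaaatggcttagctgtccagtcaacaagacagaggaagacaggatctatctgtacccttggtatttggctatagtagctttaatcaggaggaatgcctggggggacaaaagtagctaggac
Kcnip4 (chr5:49285660-49285909, − strand): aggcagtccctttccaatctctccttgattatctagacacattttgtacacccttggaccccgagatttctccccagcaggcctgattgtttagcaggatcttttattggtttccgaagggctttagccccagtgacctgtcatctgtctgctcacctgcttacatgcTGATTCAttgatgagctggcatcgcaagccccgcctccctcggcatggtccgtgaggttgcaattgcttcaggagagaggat
Kcnc1 (chr7:46396218-46396467, + strand): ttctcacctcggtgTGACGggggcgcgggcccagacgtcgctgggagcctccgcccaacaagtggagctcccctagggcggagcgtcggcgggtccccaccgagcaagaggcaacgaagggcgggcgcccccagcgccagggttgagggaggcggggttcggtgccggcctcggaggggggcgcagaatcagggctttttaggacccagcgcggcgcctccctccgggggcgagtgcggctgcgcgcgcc

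Motifs were searched on both strands. The short form of the cyclic AMP response element, TGACG, was found in 12 of the 61 promoters, against 17.8% of all 32851 promoters in the table, and in none of the 7. The full element, TGACGTCA, which contains the short form, was in 0 of 61 (1.55% of all), the FOXO motif GTAAACA in 0 (3.17%), the E-box CACGTG in 3 (6.02%) and the AP-1 motif TGANTCA in 3 (6.75%). A match is a run of letters and not a measured binding site, and the absence of one in this window says nothing of the factor.

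In POMC neurons, no member passed the test of FD against fed (0 of 66 by edgeR, where 0.375% of all tested genes did). At an unadjusted p under 0.05 there were 10 (12.2% of all genes), and the groups did not overlap for 5 (2.35% of all genes). By adjusted p, limma-voom called 3 and DESeq2 called 2, and their shares over all genes were not counted. *Kcnq3* was at 135, 192, 173, 142 and 143 CPM in fed libraries and 699, 399.8, 365, 452 and 355 CPM in FD libraries, so every FD library exceeded every fed one (log2 fold change 1.53, SE 0.37, adjusted p = 0.0556).

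Whether *Kcnq3* passed in POMC neurons turned on the estimate of spread, which all groups share. Its adjusted p was 0.0291 with DESeq2, 0.00482 with limma-voom and 0.000250 with the 2 POMC groups fitted alone. When AGRP FD replicate 2, the outlying library, was left out, it was 0.000289 at the same log2 fold change of 1.53, and without AGRP FD replicate 1 it was 0.0455. Leaving out any 1 POMC library gave 0.0683 to 0.150. Under ERCC scaling no member passed (0.0787% of all genes did) and 9 had an unadjusted p under 0.05, a count not set against all genes. This scaling lowered the log2 fold change of *Kcnq3* to 0.39 (adjusted p = 0.721) and turned that of *Kcnh7* to −0.08. The spike-in sets, which differ in the ERCC volume added, were not balanced between the POMC groups. The 1 μl set held 3 FD and 3 fed libraries, and the 10 μl set 2 FD and 0 fed. The set with volume by cell number held 0 FD and 2 fed. FD and spike-in set can therefore be told apart only within the 1 μl set. *Kcnh7* was at 75.2 to 121 CPM in fed and 172 to 237 CPM in FD POMC libraries (log2 fold change 1.00, SE 0.32, adjusted p = 0.162 by edgeR and 0.00929 by limma-voom). With the spike-in set as a block in edgeR, its log2 fold change was 0.68 (adjusted p = 0.382). That of *Kcnq3* was then 1.92 (adjusted p = 0.00445). *Kcnb2* had the lower values in FD here too, at 67.4, 104, 120.2, 79.0 and 106 CPM against 51.1, 54.6, 49.3, 62.1 and 51.0 CPM, without overlap (log2 fold change −0.83, SE 0.26, adjusted p = 0.140).

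The change with FD differed between the neuron types for 6 of the 66 members, tested as an interaction of neuron type and FD (6.71% of all tested genes). For 3 the AGRP change was the more positive (4.08% of all genes) and for 3 the more negative (2.63%). *Kcnq3* gave the smallest adjusted p: the AGRP change of −1.05 and the POMC change of 1.53 differed by −2.58 on the log2 scale (SE 0.51, adjusted p = 0.00152). This difference passed in all 21 fits with 1 library left out. It was −3.33 without AGRP FD replicate 2 and −2.38 without POMC FD replicate 1, the library at 699 CPM.

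*Kcnh1* had a difference of 2.67 (SE 0.65, adjusted p = 0.0112), from 1.60 in AGRP and −1.07 in POMC neurons, where fed libraries were at 8.10 to 24.0 CPM and FD libraries at 3.44 to 10.9 CPM, and it did not pass with limma-voom. *Kcnk1* differed by 1.72 (SE 0.43, adjusted p = 0.0125) and *Kcnc2* by 1.20 (SE 0.27, adjusted p = 0.00520), as both rose in AGRP neurons and had POMC log2 fold changes of −0.15 (SE 0.30) and −0.17 (SE 0.19). *Kcnc1* differed by −0.84 (SE 0.25, adjusted p = 0.0371), with a POMC log2 fold change of 0.07 (SE 0.18), and passed in 10 of the 21 fits with 1 library left out and not with the spike-in set as a block. *Kcnd2* differed by −1.07 (SE 0.30, adjusted p = 0.0251) without passing in either neuron type, at −0.57 in AGRP and 0.51 in POMC neurons. Its fed AGRP libraries were at 54.7 to 98.2 CPM and its FD AGRP libraries at 39.7 to 81.1 CPM, against 44.9 to 58.8 CPM in fed and 59.8 to 91.6 CPM in FD POMC libraries. For the other 6 members that changed in AGRP neurons, *Kcnv1*, *Kcnab1*, *Kcnf1*, *Kcnb2*, *Kcnip4* and *Kcnip1*, a difference from the POMC change did not pass (adjusted p = 0.149 to 0.838). Under ERCC scaling none of the 6 interactions passed by edgeR (0.721% of all genes did). An unadjusted p under 0.05 was reached by 8 of the 66 members, a count not set against all genes. *Kcnc1* (0.357) and *Kcnd2* (0.0630) turned to a positive difference. The imbalance of spike-in sets between the POMC groups enters all 6 interactions.

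**Figure D4:**
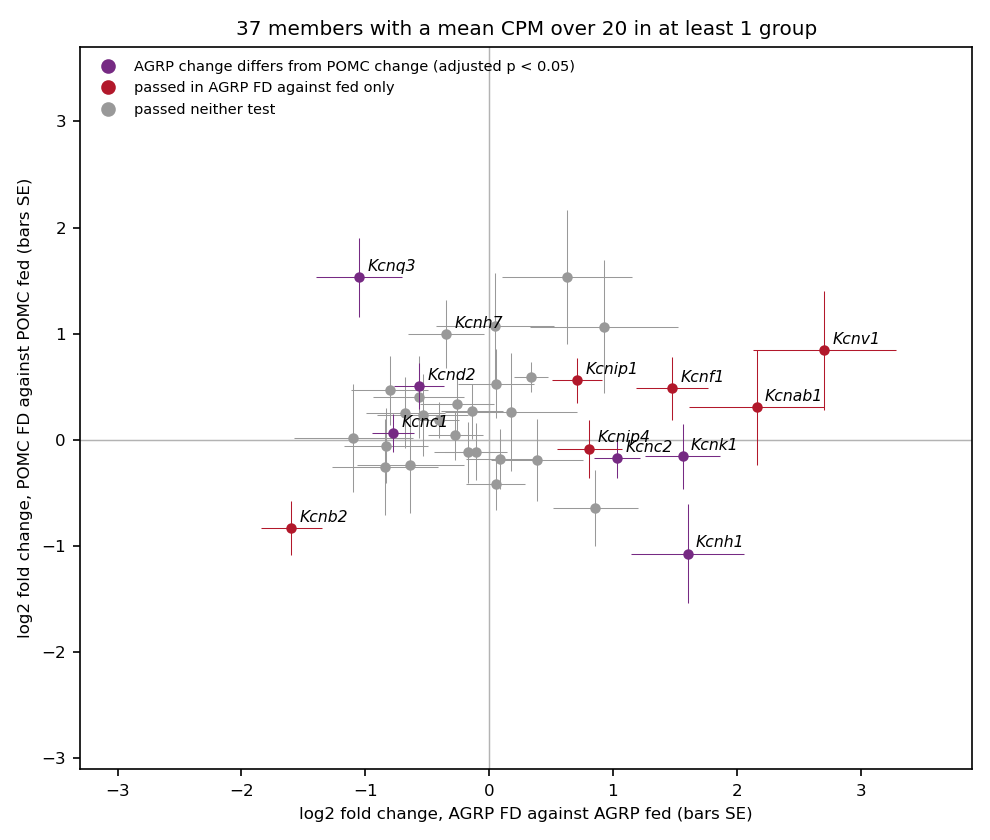
Log2 fold change with FD in AGRP neurons (x axis) and in POMC neurons (y axis), with bars for the SE, for the 37 members with a mean CPM above 20 in any of the groups. *Kcnq3* lies at −1.05 and 1.53 and *Kcnh1* at 1.60 and −1.07, whereas *Kcnb2*, at −1.60 and −0.83, lies on the same side of 0 in both.

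Some proteins anchor, traffic or modify these channels, and a list of 20 such partners was tested in the same fit. In AGRP neurons 4 changed with FD, against 10.3% of all genes. *Dpp10*, a Kv4 subunit, rose (log2 fold change 0.63, SE 0.17, adjusted p = 0.0158), and *Amigo1*, a Kv2 subunit (−0.74, SE 0.22, adjusted p = 0.0238), and the membrane scaffolds *Dlg1* (−0.57, adjusted p = 0.0232) and *Dlg2* (−0.60, adjusted p = 0.0216) fell. In POMC neurons none of the 20 passed by edgeR or limma-voom, with 4 at an unadjusted p under 0.05 by edgeR (12.2% of all genes).

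Between fed AGRP and POMC neurons 6 partners differed, against 7.57% of all genes. *Dpp10* (log2 fold change 1.44, adjusted p = 8.94e-07), *Dlg2* (1.07, adjusted p = 0.000124) and *Nedd4l* (0.76, adjusted p = 0.00756) were higher in AGRP neurons. *Adam23* (−0.95, adjusted p = 0.000490), *Dlg1* (−0.60, adjusted p = 0.0288) and *Dpp6* (−0.50, adjusted p = 0.0167) were higher in POMC neurons. *Nedd4l*, a ubiquitin ligase known to act on Kv7 channels among others, was the partner whose change with FD differed between the neuron types (−1.20, SE 0.26, adjusted p = 0.00368). It was at 215 CPM in fed and 151 CPM in FD AGRP neurons, and at 127 CPM in fed and 204 CPM in FD POMC neurons, and neither change passed alone (adjusted p = 0.0618 and 0.0871).

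The other 18 members did not pass the filter of more than 1 CPM in at least 3 libraries. One of them, *Kcnv2*, which was singled out after its values were seen, is the second Kv8 modifier. It had 726 counts in AGRP FD replicate 4 and 241 in replicate 5, and 0 to 5 counts in each of the other 19 libraries. Of the 23 members that passed in any comparison, 13 have gene models whose spans overlap another gene in the authors' annotation. Among them are *Kcnb2*, *Kcnq3*, *Kcnab1*, *Kcnip1*, *Kcnip4* and *Kcnh7*. These spans include introns, and overlap between exons was not measured. Counting ignored strand, so where exons of neighbours overlap, their reads cannot be told apart.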

How the data were processed

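RNA of hand-sorted neurons was amplified (NuGEN Ovation) with no molecular identifiers, so the reads are not independent molecules. Per the submitters' processing notes and the study's methods, reads were trimmed with cutadapt 1.7.1, cleared of abundant sequences with Bowtie2 2.1.0 and mapped to mm10 with STAR 2.4.0i. The authors deposited unnormalized counts per gene from HTSeq 0.6.1p1, counted without strand, and TPM that they computed from these counts and each gene's exon length. The 92 ERCC entries and 5 summary entries were kept out of library sizes. The summary entries held 27.2 to 56.3% of a library's counts other than ERCC, and reads in no gene made up 25.6 to 55.3%.

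Counts were tested with edgeR 4.0.16 in R 4.3.3 (quasi-likelihood, TMM, 4 group means over 21 libraries, genes above 1 CPM in at least 3 libraries, 16513 genes, two-sided, Benjamini-Hochberg over all of them, threshold 0.05). The script was tested on simulated data. Depth was 9822298 to 37663979 counts (median 19189780), and the spread between mice was used as the error. The members, classes and partner list were chosen with earlier results of these data known. Named were the members and partners that passed in any contrast, the leading member of each class, the 10 most expressed members and *Kcnq3*, with other members of their classes for comparison. The values of 3 members of the list are not reported here, though they enter the counts and sums. Alternatives were limma-voom (limma 3.58.1, the study's test), DESeq2 1.42.0, RLE and ERCC scaling, no filter, blocks for replicate number and spike-in set, the 2 groups alone, the study's criteria for differential expression, other TPM levels and each library left out.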

Additional observations from a re-analysis of the deposited data

Results flagged for a closer look

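Over 108 groups of named genes that were screened, 12 values of single libraries stood apart from the rest of their group by Dixon's criterion. Chance meets it in about 1 in 20 groups, and some libraries held more than 1 of these values. Values are normalized CPM. *Kcnq3* had 2 of them, with 424.8 in AGRP FD replicate 2 (next 116.0) and 698.6 in POMC FD replicate 1 (next 451.7), and both were above their groups. Fed AGRP libraries stood high for *Kcnf1* (153.2 in replicate 5, next 58.39), *Kcnh7* (44.28 in replicate 2, next 19.53) and *Kcnk1* (103.2 in replicate 2, next 50.58). They stood low for *Kcnd2* (54.67 in replicate 2, next 91.94) and *Kcnj5* (60.68 in replicate 1, next 76.06). *Kcnc2* was low in AGRP FD replicate 1, at 202.2 where the next library had 307.1. In fed POMC replicate 4, *Kcnip3* (20.21, next 5.798) and *Kcnj2* (1.804, next 0.2565) were high. In POMC FD replicate 5, *Kcnk9* (11.23, next 2.767) and *Kcnk13* (32.76, next 12.17) were high.

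For 6 members the log2 change with FD in AGRP neurons differed from that in POMC neurons by the interaction test. The AGRP change was the higher by 2.673 for *Kcnh1* (adjusted p = 0.0112), 1.717 for *Kcnk1* (adjusted p = 0.0125) and 1.202 for *Kcnc2* (adjusted p = 0.00520). The difference was −2.584 for *Kcnq3* (adjusted p = 0.00152), −1.071 for *Kcnd2* (adjusted p = 0.0251) and −0.8425 for *Kcnc1* (adjusted p = 0.0371).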

How the results depend on the processing

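The number of members called stayed within 1.5 times of the reported one under the alternatives that kept every library, apart from ERCC scaling, at 8 to 13 (against 11) for AGRP FD and fed, 8 to 15 (against 12) for AGRP and POMC and 5 to 9 (against 6) for the interaction. Scaling by spike-in counts per volume and sorted cell left 0, 2 (*Kcnj2* and *Kcnk9*) and 0 members, with 6, 10 and 8 at an unadjusted p under 0.05, and 0 in POMC neurons, with 9. Calls over all 16513 genes were 97, 297, 119 and 13 at the adjusted threshold, and shares at the unadjusted one were not counted. This scaling moved the median of all genes by −1.11 in POMC FD against fed, where the spike-in sets were not balanced between the groups. In AGRP libraries the ERCC counts were out of proportion to the added volume, and the part of this in the lost calls was not tested. Directions of the calls held except for the interactions of *Kcnc1* (0.357) and *Kcnd2* (0.0630), which reversed. For POMC FD against fed, limma-voom called 3 members, DESeq2 2, the 2 groups alone 2, no filter 1 and the spike-in block 1, against 0. Shares over all genes were not counted for these fits. Without 1 library, 7 to 11 members were called in AGRP neurons (7 without AGRP fed replicate 1), 0 to 1 in POMC neurons (1 without POMC fed replicate 3), 10 to 12 between fed neuron types and 5 to 8 in the interaction. Without the filter, *Kcnv2* joined the AGRP calls (adjusted p = 0.00821). A mean above 20 TPM, in place of 1 TPM, was reached by 27, 25, 22 and 23 members (fed and FD AGRP, fed and FD POMC). The partners' interaction count was 2 with limma-voom, against 1. Of 2240 gene and setting pairs, 2110 kept their side of the threshold. Among the 108 gene and comparison pairs behind them, 29 had passed as reported. A turn of direction was counted only where either fit passed, so that of *Kcnh7* in POMC neurons under ERCC scaling was not.

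Same-numbered replicates are different mice, and their deviations correlated at −0.122 to 0.0511, so the numbers do not pair the samples. With the replicate number as a block, 10 members were called in AGRP neurons, 0 in POMC neurons, 12 between fed neuron types and 7 in the interaction.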

Other observations

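Within the family, some members with low levels differed among groups without passing the main test. *Kcng1* (Kv6.1, a silent modifier of Kv2 channels) was at 7.10 TPM in fed AGRP neurons and 1.19 TPM in fed POMC neurons, and passed with limma-voom alone (log2 fold change 5.42, adjusted p = 0.00118). *Kcnt2*, the relative of *Kcnt1* called Slick, was at 6.80 TPM in fed AGRP and 16.8 TPM in fed POMC neurons, with groups that did not overlap, and passed with limma-voom (adjusted p = 0.0464) and with the 2 groups alone (adjusted p = 0.0166) but not in the edgeR fit of all groups (adjusted p = 0.125). *Kcnj5*, already higher in fed AGRP neurons, was at 83.2 to 189 CPM in FD AGRP libraries, above every fed library, with a log2 fold change of 0.86 (adjusted p = 0.115, and 0.0257 with limma-voom). *Kcnj3* was at 8.74 to 54.6 CPM in FD AGRP libraries and 145 to 215 CPM in FD POMC libraries, a comparison that was not tested. *Kcng1* and *Kcnt2* were singled out after their values were seen.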
